A study of Mus musculus with 14 samples.

Results

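The miR-344 family is a set of related mouse microRNAs, short RNAs cut from hairpin precursors. Its rows were found by name, as every deposited row that begins with miR-344 followed by a letter or a hyphen. There were 11 such rows among the 1123 listed mature miRNAs. Of these, 6 reached 5 CPM (reads scaled to a common library size by the submitters) or more in 3 or more of 14 libraries, the filter used for model fits, and all 6 were 3p arms, from the 3′ side of a hairpin. The other 5 stayed under 5 CPM in all libraries. The family was singled out because members had opposite changes after nerve injury in these same libraries, so the injury values below are a description and carry no test.

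Small RNA was sequenced from dorsal root ganglia (DRG), which hold the cell bodies of sensory neurons. There were 3 libraries of injured and 3 of naive CAST/Ei ganglia, and 3 of injured and 5 of naive C57BL/6 ganglia. CAST/Ei is an inbred strain derived from wild Mus musculus castaneus, and C57BL/6 is the common laboratory strain. Injured mice of both strains were males of 8 to 10 weeks with the left sciatic nerve crushed for 30 s. Naive mice are labelled as untreated; the sources used here give neither their age and sex nor the time between crush and dissection. The design text calls the libraries biological replicates, and the labels name no transgene.

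A miRNA guides a silencing complex to messenger RNAs, chiefly by pairing of its seed, bases 2 to 8 from the 5′ end. Each hairpin gives 2 arms, 5p and 3p, of which usually a single one is kept. The miR-344 family has been described in mouse and rat, and miR-344-3p was studied in the developing mouse nervous system. Its hairpins lie near Ndn, Magel2 and Mkrn3, imprinted genes of the region that corresponds to the human Prader-Willi locus.

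The mature sequences fall into groups by seed. They are shown for the 6 kept arms, from RefSeq on build GRCm38.p6, 5′ to 3′ with the seed in capitals. All 11 rows matched the RefSeq table by name.
miR-344d-3p: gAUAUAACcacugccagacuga
miR-344e-3p: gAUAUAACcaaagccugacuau
miR-344h-3p: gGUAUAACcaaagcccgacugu
miR-344b-3p: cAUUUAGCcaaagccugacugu
miR-344-3p: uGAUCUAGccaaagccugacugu
miR-344c-3p: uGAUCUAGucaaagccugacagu

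miR-344d-3p and miR-344e-3p have the same seed, AUAUAAC, and miR-344h-3p has GUAUAAC. miR-344-3p and miR-344c-3p share GAUCUAG. miR-344b-3p alone among listed miRNAs with a sequence has AUUUAGC, although its last 18 bases are those of miR-344-3p and the 2 lie an edit distance of 3 apart. The closest pair, miR-344-3p and miR-344c-3p, has an edit distance of 2. The submitters' handling of mismatches and of reads with several matches was not given in the sources used here, so values of such close members are uncertain to the extent that reads were split between them. Arms of 22 and 23 bases were compared with no length correction. Whether each sequence is captured equally in the libraries was not tested, so an order of levels between miRNAs is an order of reads.

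The RefSeq table places 13 miR-344 hairpins on the minus strand of chromosome 7, in chr7:61683124-62085310, a span of 402 kb. Running up the chromosome from its low end, the order is Mir344d-1, Mir344d-2, Mir344d-3, Mir344e, Mir344h-1, Mir344h-2, Mir344b, Mir344c, Mir344, Mir344-2, Mir344g, Mir344f and Mir344i. In GENCODE M21 (GRCm38), 7 hairpins from Mir344d-3 to Mir344 lie in introns of the long non-coding gene A230057D06Rik on the same strand. Mir344d-1 and Mir344d-2 lie 21.3 and 19.2 kb past its 3′ end. Mir344-2 is intronic in the neighbouring non-coding A330076H08Rik, and Mir344g overlaps an exon of it. The protein-coding Ndn begins 261 kb beyond Mir344i.

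The mature miR-344d-3p can come from 3 hairpins, and miR-344h-3p and miR-344-3p from 2 each, so reads cannot be assigned to a copy. miR-344e-3p, miR-344b-3p and miR-344c-3p have 1 hairpin each. The build behind the submitters' alignment was not given in the sources used here, and these positions are those of the reference tables. Within 500 kb of the hairpins the table holds 8 other mature names, all of them miR-344 arms and none among the listed rows, so they were not analysed here.

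The libraries held 4007706 to 15642360 recovered reads and detected 949 to 1084 of the 1123 miRNAs. C57BL/6 naive libraries 4 and 5 stood apart, with Spearman correlations of 0.871 to 0.926 with the other 12 libraries, against 0.925 to 0.993 among those 12. Log2 changes and strain differences that use them are also given without them. All 7 neuronal marker miRNAs were detected, and their summed level was 103355 to 112086 CPM in CAST/Ei injured and 131192 to 146863 CPM in CAST/Ei naive ganglia. It was 108277 to 112744 CPM in C57BL/6 injured and 133376 to 166741 CPM in C57BL/6 naive ganglia. The neuronal sum was thus lower after injury in both strains with no overlap, and its part in the results below was not tested. The glial sum, over 3 of 3 markers, was 34292 to 37481 CPM in CAST/Ei injured and 40129 to 51444 CPM in CAST/Ei naive ganglia, and 38267 to 49757 CPM in C57BL/6 injured and 8621 to 39872 CPM in C57BL/6 naive ganglia. The leukocyte sum, over 6 of 6 markers, overlapped between injured and naive libraries in both strains. In CAST/Ei the skeletal muscle sum, over 4 of 4 markers, was 6359 to 7393 CPM in injured and 8788 to 11363 CPM in naive ganglia. The erythrocyte sum, over 3 of 4 markers, was 7212 to 8867 CPM in CAST/Ei injured and 9088 to 12815 CPM in CAST/Ei naive ganglia. The glial, muscle and erythrocyte sums were thus lower after injury in CAST/Ei with no overlap, and the muscle and erythrocyte sums overlapped in C57BL/6. Their part in the results was not tested, and no marker of any list was at 0 everywhere. In whole ganglia, fewer cells of a type and less RNA per cell cannot be told apart.

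In rank by mean level over the 14 libraries, miR-344-3p was 290, miR-344d-3p 304 and miR-344b-3p 323 of 1123, at 81.2, 73.6 and 56.8 CPM. miR-344c-3p, miR-344h-3p and miR-344e-3p were far lower, at 5.93, 5.67 and 3.19 CPM and ranks 570, 575 and 648. The order of the abundant trio differed between groups. In CAST/Ei injured ganglia miR-344d-3p led, at a mean of 136 CPM, with ranges that overlapped those of miR-344-3p. In CAST/Ei naive ganglia miR-344b-3p led at 98.2 CPM, above miR-344-3p in 3 of 3 libraries although their ranges over libraries overlapped. In C57BL/6 injured ganglia miR-344-3p and miR-344d-3p were level at 94.2 and 90.5 CPM and miR-344b-3p was below both, with no overlap. In C57BL/6 naive ganglia the order was miR-344-3p, miR-344b-3p and miR-344d-3p, at 61.9, 49.6 and 35.0 CPM, with overlap between neighbours.

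miR-344d-3p was higher after injury in both strains. It had 177, 90.9 and 140 CPM in CAST/Ei injured libraries 1 to 3, and 60.8, 58.3 and 57.1 CPM in CAST/Ei naive libraries 1 to 3. It had 94.8, 97.6 and 79.2 CPM in C57BL/6 injured libraries 1 to 3, and 31.2, 25.5, 31.4, 25.7 and 60.9 CPM in C57BL/6 naive libraries 1 to 5. No injured library reached down to its strain's naive ones, and C57BL/6 naive library 5 stood about as high as the CAST/Ei naive libraries. The means were 136 ± 43.2 CPM in injured and 58.7 ± 1.87 CPM in naive CAST/Ei ganglia (SD, n = 3 each). They were 90.5 ± 9.89 CPM (SD, n = 3) in injured and 35.0 ± 14.8 CPM (n = 5) in naive C57BL/6 ganglia. On the log2(CPM + 1) scale the injury change was 1.15 ± 0.34 (SE) in CAST/Ei and 1.42 ± 0.30 in C57BL/6, or 1.59 in C57BL/6 without naive libraries 4 and 5.

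miR-344e-3p, which shares the seed of miR-344d-3p, was near absent from naive C57BL/6 ganglia. It had 5.11, 5.78 and 3.57 CPM in CAST/Ei injured libraries 1 to 3, and 1.74, 0.890 and 1.89 CPM in CAST/Ei naive libraries 1 to 3. In C57BL/6 it had 6.67, 6.68 and 10.5 CPM in injured libraries 1 to 3. In C57BL/6 naive ganglia 3 libraries had 0 reads, library 2 had 1 read and library 3 had 7 reads, which is 1.77 CPM. A count of 0 allows up to 3 reads, which is 0.345 to 0.564 CPM in those 3 libraries. The injured libraries of each strain lay above all of its naive ones. The change was 1.22 ± 0.40 in CAST/Ei and 2.82 ± 0.36 in C57BL/6 on the log2(CPM + 1) scale, or 2.61 in C57BL/6 without naive libraries 4 and 5. The C57BL/6 value is no estimate of fold, since it depends on the constant added to naive values at or near 0.

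miR-344h-3p followed the same direction. It had 12.5, 8.19 and 10.4 CPM in CAST/Ei injured libraries 1 to 3, and 5.07, 5.12 and 3.27 CPM in CAST/Ei naive libraries 1 to 3. It had 5.58, 9.24 and 13.2 CPM in C57BL/6 injured libraries 1 to 3, and 0.822, 2.43, 2.53, 0.345 and 0.752 CPM in C57BL/6 naive libraries 1 to 5. Injured and naive libraries did not overlap in either strain, and the lowest naive value, in C57BL/6 library 4, was 3 reads. The log2 change was 1.05 ± 0.41 (SE) in CAST/Ei and 2.16 ± 0.37 in C57BL/6, or 1.81 without C57BL/6 naive libraries 4 and 5. Over 26 alternative fits the C57BL/6 change ran from 1.15 to 2.99. It varies with the constant added, since the C57BL/6 naive libraries held 3 to 30 reads. miR-344e-3p passed the filter through injured libraries alone and miR-344h-3p mainly through them, so a difference from naive libraries was built into their being kept.

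miR-344b-3p went the other way in both strains. It had 51.3, 43.2 and 49.1 CPM in CAST/Ei injured libraries 1 to 3, and 104, 84.0 and 107 CPM in CAST/Ei naive libraries 1 to 3. It had 36.7, 42.2 and 29.8 CPM in C57BL/6 injured libraries 1 to 3, and 51.8, 43.3, 56.0, 49.6 and 47.2 CPM in C57BL/6 naive libraries 1 to 5. In CAST/Ei the groups were well separated, whereas in C57BL/6 the highest injured library was just under the lowest naive one. The means were 47.9 ± 4.19 CPM in injured and 98.2 ± 12.4 CPM in naive CAST/Ei ganglia (SD, n = 3 each). They were 36.2 ± 6.23 CPM (SD, n = 3) in injured and 49.6 ± 4.78 CPM (n = 5) in naive C57BL/6 ganglia. The log2 change was -1.02 ± 0.25 (SE) in CAST/Ei and -0.45 ± 0.22 in C57BL/6, or -0.47 without naive libraries 4 and 5.

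miR-344-3p, the member first named, differed less. It had 95.9, 92.8 and 107 CPM in CAST/Ei injured libraries 1 to 3, and 102, 78.3 and 68.8 CPM in CAST/Ei naive libraries 1 to 3. It had 92.4, 92.9 and 97.2 CPM in C57BL/6 injured libraries 1 to 3, and 73.8, 61.0, 81.3, 48.9 and 44.6 CPM in C57BL/6 naive libraries 1 to 5. The CAST/Ei groups overlapped and the C57BL/6 groups did not, with the lowest naive values in the libraries that stood apart. The log2 change was 0.26 ± 0.28 (SE) in CAST/Ei and 0.63 ± 0.25 in C57BL/6, or 0.39 ± 0.20 in C57BL/6 without naive libraries 4 and 5.

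miR-344c-3p, which shares the seed of miR-344-3p, had 5.30, 5.30 and 9.30 CPM in CAST/Ei injured libraries 1 to 3, and 4.34, 3.00 and 3.61 CPM in CAST/Ei naive libraries 1 to 3. It had 6.07, 9.14 and 8.65 CPM in C57BL/6 injured libraries 1 to 3, and 9.18, 4.86, 5.07, 3.33 and 5.83 CPM in C57BL/6 naive libraries 1 to 5. The CAST/Ei groups did not overlap, while the highest C57BL/6 naive library was above every C57BL/6 injured one. The log2 change was 0.68 ± 0.35 (SE) in CAST/Ei and 0.47 ± 0.31 in C57BL/6, or 0.31 without C57BL/6 naive libraries 4 and 5.

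**Figure D1:**
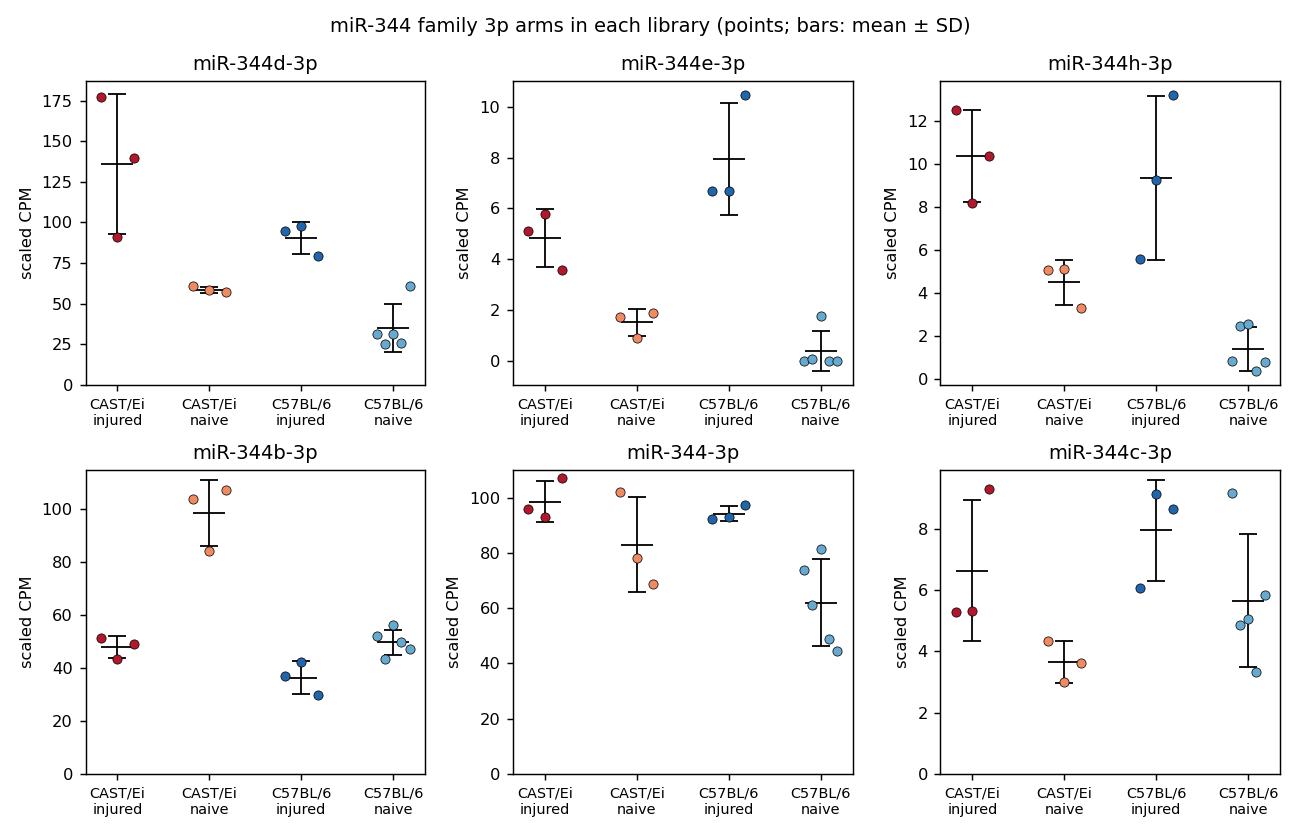
Scaled CPM (vertical axis, from 0) of the 6 kept miR-344 3p arms in the 4 groups; each point is a library, and the horizontal mark and bars are the group mean ± SD. miR-344d-3p, miR-344e-3p and miR-344h-3p are higher and miR-344b-3p is lower in the injured libraries than in the naive libraries of the same strain.

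Counted over the 6 kept arms, 4 had injured libraries all above the naive ones in CAST/Ei (miR-344d-3p, miR-344e-3p, miR-344h-3p and miR-344c-3p), where 10.2% of the 638 kept miRNAs did. In CAST/Ei 1 arm, miR-344b-3p, was below in every injured library, as were 16.5% of all. In C57BL/6 4 arms were all above (miR-344d-3p, miR-344e-3p, miR-344h-3p and miR-344-3p), against 8.62% of all, and 1, miR-344b-3p, all below, against 6.27%. The members were chosen on these contrasts, so nothing is read from these shares. Without C57BL/6 naive libraries 4 and 5 the same 4 arms were above, against 14.4% of all, and miR-344b-3p was below, against 9.56%.

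The median injury change of all 638 miRNAs was -0.085 in CAST/Ei and 0.12 in C57BL/6 with the deposited scaling, and 0.16 in CAST/Ei and 0.26 in C57BL/6 with plain CPM, which scales by total reads alone. Under plain CPM the change of miR-344b-3p was -0.75 in CAST/Ei and -0.31 in C57BL/6, and that of miR-344d-3p was 1.41 in CAST/Ei and 1.56 in C57BL/6. The CAST/Ei change of miR-344-3p was 0.52 under plain CPM. Relative to those medians, miR-344b-3p stayed lower and miR-344d-3p higher under both scalings.

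The difference in injury change, CAST/Ei minus C57BL/6, was -1.11 ± 0.55 (SE) for miR-344h-3p and -0.57 ± 0.33 for miR-344b-3p, or -0.76 and -0.55 without C57BL/6 naive libraries 4 and 5. For miR-344e-3p it was -1.60 ± 0.54, but -1.38 without those libraries and -3.11 in edgeR, since it holds the C57BL/6 change that is no estimate of fold. For miR-344h-3p, whose C57BL/6 change also varies with the added constant, it was -1.42 in edgeR. It was smaller than its SE for miR-344-3p (-0.37 ± 0.38), miR-344d-3p (-0.27 ± 0.45) and miR-344c-3p (0.22 ± 0.46). Without those libraries it was -0.13 ± 0.29 for miR-344-3p and 0.37 ± 0.45 for miR-344c-3p, and -0.44 ± 0.34 for miR-344d-3p, there larger than its SE. For miR-344d-3p DESeq2 on all 14 libraries turned its sign (0.013). The estimated injury change had the same sign in both strains for each of the 6 arms, so by sign the opposition lay between members. None of these signs is taken as firm, since the family was chosen on these changes and 95% intervals make no allowance for that choice. An interval clear of 0 is thus no test here. The 95% intervals of miR-344c-3p in both strains, of miR-344-3p in CAST/Ei (-0.33 to 0.86) and of miR-344b-3p in C57BL/6 (-0.92 to 0.02) span 0.

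Ratios of reads within a library do not depend on the scaling. miR-344d-3p over miR-344b-3p was 3.45, 2.10 and 2.84 in CAST/Ei injured libraries 1 to 3, and 0.586, 0.694 and 0.534 in CAST/Ei naive libraries 1 to 3. It was 2.58, 2.31 and 2.66 in C57BL/6 injured libraries 1 to 3, and 0.603, 0.590, 0.561, 0.519 and 1.29 in C57BL/6 naive libraries 1 to 5. All 6 injured libraries were above 2 and all naive ones except C57BL/6 library 5 were below 0.7. miR-344-3p over miR-344b-3p was 1.87 to 2.18 in CAST/Ei injured and 0.643 to 0.984 in CAST/Ei naive libraries. It was 2.20 to 3.27 in C57BL/6 injured and 0.944 to 1.45 in C57BL/6 naive libraries.

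The family as a whole summed to 308 ± 52.4 CPM in CAST/Ei injured and 253 ± 25.9 CPM in CAST/Ei naive ganglia (SD, n = 3 each). The sum was 251 ± 10.2 CPM (SD, n = 3) in C57BL/6 injured and 156 ± 20.9 CPM (n = 5) in C57BL/6 naive ganglia. miR-344b-3p made up 15.7 ± 1.41% of family reads in CAST/Ei injured and 38.9 ± 4.44% in CAST/Ei naive ganglia (SD, n = 3 each). It made up 14.4 ± 1.95% (SD, n = 3) in C57BL/6 injured and 32.0 ± 3.31% (n = 5) in C57BL/6 naive ganglia. miR-344d-3p, miR-344e-3p and miR-344h-3p together made up 48.3 ± 6.75% in CAST/Ei injured and 25.7 ± 1.80% in CAST/Ei naive ganglia. Together they made up 42.9 ± 0.497% in C57BL/6 injured and 23.4 ± 8.38% in C57BL/6 naive ganglia, where library 5 reached 38.4% and the others 19.1% to 20.2%.

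**Figure D2:**
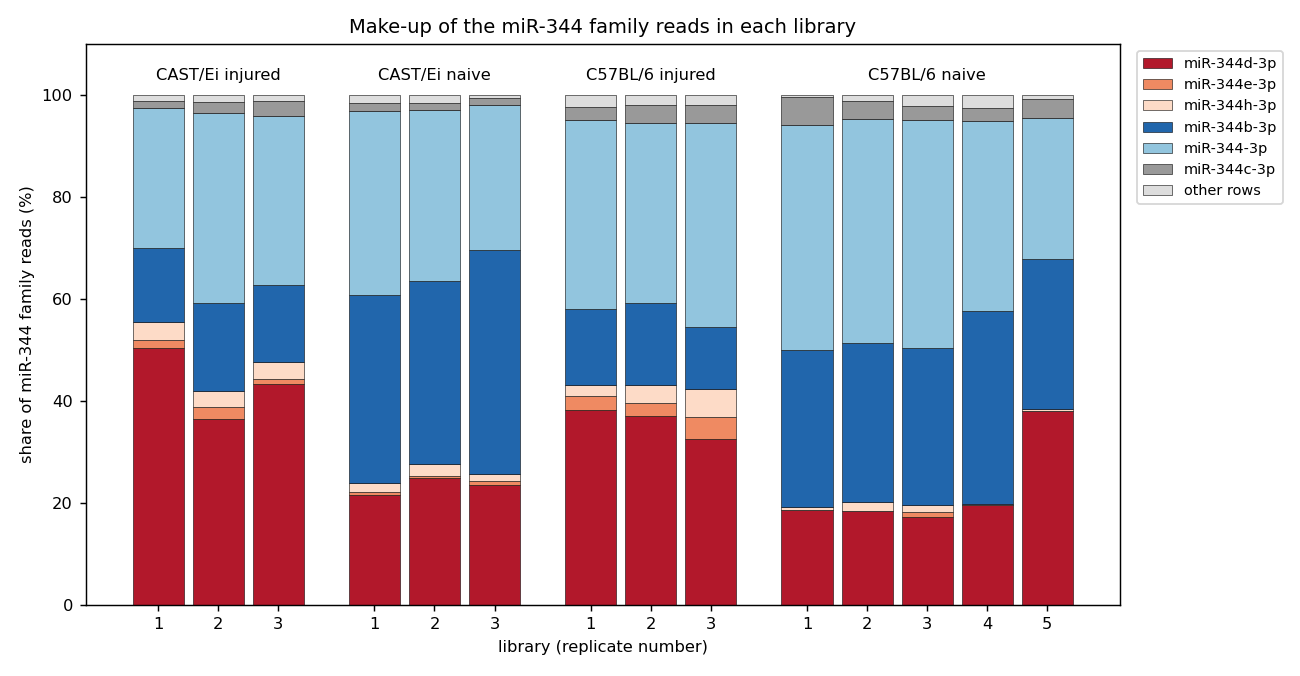
Share of all miR-344 family reads (vertical axis, %) that each 3p arm takes in each of the 14 libraries, 1 bar per library, grouped by strain and state; "other rows" are the 5 rows below the filter. The share of miR-344b-3p is 14.4% on average in C57BL/6 injured and 32.0% in C57BL/6 naive libraries, and C57BL/6 naive library 5 has a larger share of miR-344d-3p than the other naive libraries.

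By position, the arms whose injured libraries were all above the naive ones in both strains lie on 1 side of Mir344b. The members were chosen on these contrasts, and miR-344e-3p was kept only, and miR-344h-3p mainly, through injured libraries. The order along the chromosome is thus a description only. The 6 hairpins of miR-344d-3p, miR-344e-3p and miR-344h-3p lie 0 to 59.2 kb from the low end of the cluster and Mir344b at 107 kb. Mir344c, Mir344 and Mir344-2 follow at 154, 195 and 257 kb, and their arms overlapped between injured and naive libraries in 1 strain each. miR-344b-3p thus differed in direction from miR-344e-3p, miR-344h-3p and miR-344c-3p, whose hairpins all lie in introns of the same annotated host gene. Those arms averaged only 3.19 to 5.93 CPM, and the intervals of miR-344c-3p span 0. miR-344d-3p and miR-344-3p also have hairpins outside that gene, and their reads cannot be assigned to a copy.

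**Figure D3:**
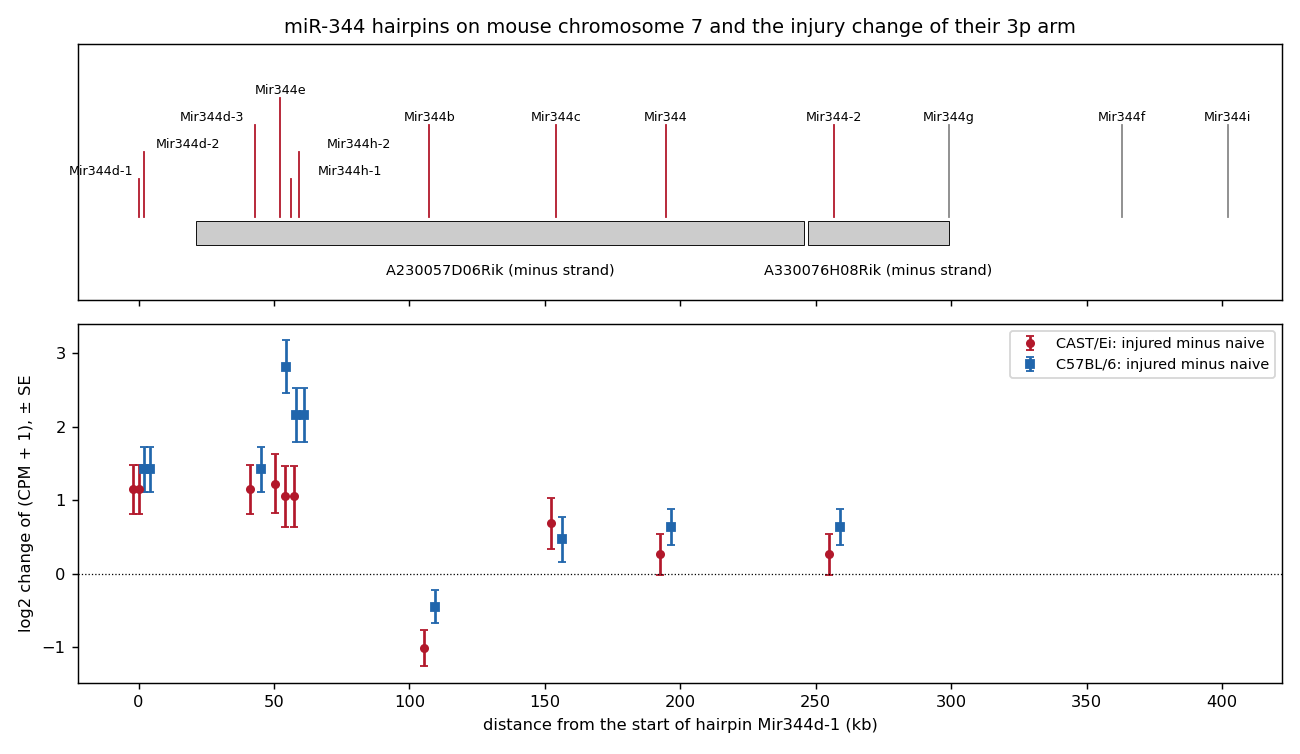
Top, the 13 miR-344 hairpins (lines, red where a 3p arm was kept) and 2 host genes (grey) by distance in kb from Mir344d-1; bottom, the injury change of the kept 3p arm at each hairpin on the log2(CPM + 1) scale ± SE, the strains drawn slightly apart. Arms with several hairpins appear at each, and the points of miR-344b-3p, at -1.02 in CAST/Ei and -0.45 in C57BL/6, are the only ones below 0.

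Strain was compared as the mean of the 2 CAST/Ei groups minus that of the 2 C57BL/6 groups, the contrast least tied to the injury changes on which the family was chosen, although it uses the same libraries. Whether CAST/Ei mice carry the reference sequences and hairpin copies of this family was not tested. A strain difference in how reads matched close members thus cannot be told apart from one in level. miR-344b-3p was higher in CAST/Ei, with a mean over states of 73.0 CPM in CAST/Ei and 42.9 CPM in C57BL/6 ganglia. Its averaged strain change was 0.69 ± 0.17 (SE) on the log2 scale, and the limma adjusted p over 638 miRNAs was 0.0168. All CAST/Ei injured libraries were above all C57BL/6 injured ones, and all CAST/Ei naive libraries above all C57BL/6 naive ones. In that contrast 1 of the 6 kept arms passed, upward, where 23 miRNAs or 3.61% passed upward, 4.39% downward and 7.99% in either direction. The call was lost without C57BL/6 injured library 3 (limma adjusted p = 0.0627). It was also lost without library 1 of the CAST/Ei injured group (0.0568) or its library 3 (0.0573), and, in edgeR, without C57BL/6 injured library 1 (0.0758). Over its 27 alternatives the adjusted p ranged between 0.00271 and 0.0758 in limma, edgeR or DESeq2.

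miR-344d-3p and miR-344h-3p did not pass. miR-344d-3p averaged 97.3 CPM in CAST/Ei and 62.7 CPM in C57BL/6 ganglia over states, a log2 change of 0.67 (95% interval 0.19 to 1.16, limma adjusted p = 0.0827). It passed without C57BL/6 naive library 5 (log2 change 0.78, limma adjusted p = 0.0109) and without naive libraries 4 and 5 (0.76, limma adjusted p = 0.00839; range over 27 alternatives 0.00697 to 0.206). miR-344h-3p averaged 7.42 CPM in CAST/Ei and 5.36 CPM in C57BL/6 ganglia, a log2 change of 0.74 (0.15 to 1.33, limma adjusted p = 0.118). Its change was 0.57 without C57BL/6 naive libraries 4 and 5, and that of miR-344b-3p 0.68.

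The remaining arms had intervals that span 0. miR-344-3p had a log2 strain change of 0.25 (95% interval -0.15 to 0.65, limma adjusted p = 0.44) and miR-344c-3p of -0.36 (-0.85 to 0.13, adjusted p = 0.383). For miR-344e-3p the log2 change was 0.19 (-0.39 to 0.76, limma adjusted p = 0.692), while its mean CPM over states was lower in CAST/Ei, at 3.16 CPM against 4.15 CPM in C57BL/6. Without C57BL/6 naive libraries 4 and 5 the log2 strain change was 0.13 for miR-344-3p, -0.44 for miR-344c-3p and 0.08 for miR-344e-3p. Changes of the sizes inside these intervals could not be told from 0 with 3 to 5 libraries a group.

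Within each state, strain differences are values with no test, since they share libraries with the injury contrasts. Between naive ganglia the log2 difference, CAST/Ei minus C57BL/6, was 0.97 ± 0.22 (SE) for miR-344b-3p, 1.30 ± 0.37 for miR-344h-3p, 0.98 ± 0.36 for miR-344e-3p and 0.81 ± 0.30 for miR-344d-3p. Without C57BL/6 naive libraries 4 and 5 it was 0.95 for miR-344b-3p, 0.95 for miR-344h-3p, 0.77 for miR-344e-3p and 0.98 for miR-344d-3p. Of the 6 arms, miR-344b-3p and miR-344h-3p had CAST/Ei naive libraries all above the C57BL/6 naive ones, where 9.4% of the 638 miRNAs did, and 0 arms were all below, where 7.05% were. Without C57BL/6 naive libraries 4 and 5, miR-344d-3p was also all above, against 14.7% of miRNAs, and miR-344c-3p all below, against 9.87%. Between injured ganglia the difference was 0.40 ± 0.25 for miR-344b-3p, 0.19 ± 0.41 for miR-344h-3p, -0.61 ± 0.40 for miR-344e-3p and 0.53 ± 0.34 for miR-344d-3p. There miR-344b-3p was above in every CAST/Ei library, as were 15.4% of all, and miR-344e-3p below in each, as were 20.5%.

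**Figure D4:**
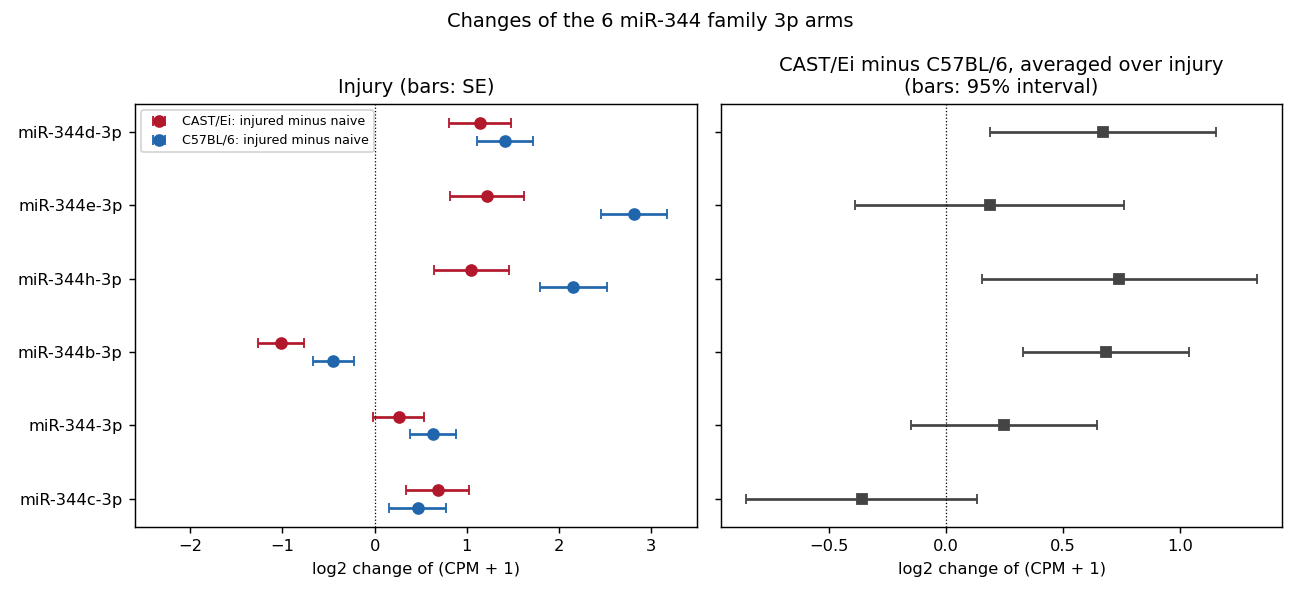
Log2 change of (CPM + 1) on the horizontal axis for the 6 kept arms; left, injured minus naive in each strain with SE bars, and right, CAST/Ei minus C57BL/6 averaged over injury with 95% intervals. Left, miR-344b-3p is the arm below 0 in both strains; right, the intervals of miR-344b-3p, miR-344d-3p and miR-344h-3p lie above 0, and of these miR-344b-3p passed after adjustment over all miRNAs.

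The 5 scarce rows held 41 to 255 reads over the 14 libraries. miR-344d-3-5p, the 5p arm of the Mir344d-3 hairpin, had 1.73 to 2.63 CPM in CAST/Ei injured and 0.860 to 3.77 CPM in CAST/Ei naive libraries. It had 2.26 to 3.19 CPM in C57BL/6 injured and 0.376 to 1.03 CPM in C57BL/6 naive libraries, with no overlap in C57BL/6 as for miR-344d-3p. miR-344d-1-5p stayed between 0 and 0.778 CPM and miR-344g-3p between 0 and 1.84 CPM, with overlap in both strains. miR-344e-5p and miR-344h-5p have the same RefSeq sequence, shown to explain why they cannot be told apart by reads, with the seed in capitals: cAGGCUUCuggcuauauucc. Both were highest in C57BL/6 naive library 3, with 5 and 8 reads, the library that also held 7 of the 8 miR-344e-3p reads of that group. Leaving it out, no other C57BL/6 naive library had more than 1 read of either. Both had CAST/Ei injured libraries all above the CAST/Ei naive ones. miR-344e-5p had 2 to 13 reads in injured and 0 to 1 in naive CAST/Ei libraries, and miR-344h-5p 3 to 6 and 1 to 2. Their C57BL/6 groups overlapped, at means of 0.728 CPM injured and 0.270 CPM naive for miR-344e-5p, and 0.822 and 0.443 CPM for miR-344h-5p. Nothing is read from counts this low.

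Only 1 other listed miRNA with a RefSeq sequence carries the AUAUAAC seed of miR-344d-3p and miR-344e-3p. It is miR-410-3p from chromosome 12, a miRNA of the imprinted Dlk1-Dio3 region, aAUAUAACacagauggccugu, with the shared seed in capitals. It had 322 ± 29.6 CPM in CAST/Ei injured and 290 ± 25.9 CPM in CAST/Ei naive ganglia (SD, n = 3 each). It had 357 ± 66.7 CPM (SD, n = 3) in C57BL/6 injured and 397 ± 301 CPM (n = 5) in C57BL/6 naive ganglia. It was thus above miR-344d-3p on average in each group, and its groups overlapped within each strain. Its averaged strain change was -0.11 ± 0.38 (SE, limma adjusted p = 0.888). miR-7070-3p shares the AGGCUCU seed of the scarce miR-344g-3p and averaged 2.05 to 5.86 CPM by group.

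Likeness was measured as Pearson's r of log2(CPM + 1) over 14 libraries that share group structure and scaling, and is a description. Among the kept arms, miR-344h-3p had r = 0.90 with miR-344e-3p, 0.82 with miR-344d-3p and 0.86 with miR-344-3p. miR-344b-3p had r between -0.62 (miR-344c-3p) and -0.04 (miR-344-3p) with the others. Outside the family, the closest to miR-344d-3p was miR-21a-5p, known for rising in injured tissue, at r = 0.86, followed by miR-6540-3p at 0.86 and miR-135a-5p at 0.85. For miR-344e-3p it was miR-154-3p of the Dlk1-Dio3 region (0.95), then miR-21a-5p (0.89) and miR-539-5p (0.87). For miR-344h-3p they were miR-433-5p (0.90), miR-154-3p (0.89) and miR-7689-3p (0.89).

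For miR-344b-3p the closest were miR-34a-3p (r = 0.88), the scarce miR-201-3p (0.79) and miR-23b-3p (0.77). For miR-344-3p they were miR-126a-3p, an endothelial miRNA (0.90), miR-379-5p (0.90) and the activity-regulated miR-132-3p (0.90). For miR-344c-3p they were miR-511-3p (0.75), miR-669c-3p (0.68) and miR-323-3p (0.66). Without C57BL/6 naive libraries 4 and 5 these values were 0.83 to 0.96 for the partners of miR-344d-3p and miR-344e-3p, but 0.66 for miR-132-3p and 0.72 for miR-379-5p with miR-344-3p.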

How the data were processed

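Per the submitters' processing notes, reads were aligned with Bowtie2. The deposited signal per mature miRNA, called CPM in the file names, totals 867581 to 1311857 per library, so it is not plain CPM. In all 14 libraries 100% of values were whole multiples of the value of 1 read (tolerance 1e-06 reads), so whole reads were recovered, least certainly in C57BL/6 injured library 1. Ratios of reads and library totals use them. No molecular identifiers are recorded, so limits from counts of 0, taken as 3 reads, cover counting error only.

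Levels of the 638 kept miRNAs (minimum 5 CPM, reached by 3 or more libraries) were fitted as log2(CPM + 1), 1 mean per group, by limma-trend (R 4.3.3, limma 3.58.1), also checked on simulated data. P-values are two-sided and Benjamini-Hochberg adjusted over all 638, threshold 0.05. This scale understates changes of scarce miRNAs. edgeR 4.0.16 on the recovered reads called 49 miRNAs for strain and limma 51. DESeq2 1.42.0, other pseudocounts, filters and scalings, and libraries left out were alternatives. Levels are means with standard deviation (SD), and changes carry a standard error (SE). The plan assumed plain CPM, and its test was kept.

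Members were found by name. For likeness, the 3 miRNAs with the highest r outside the family were named. The members, lists and alternatives were chosen with earlier results of these data known. Sequences come from RefSeq (GRCm38.p6).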

Additional observations from a re-analysis of the deposited data

Results flagged for a closer look

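In C57BL/6 naive ganglia, the only group of 4 or more libraries, each of the 11 rows was examined for a library far from the other 4, with a gap over the group's range above 0.71. For normally spread values chance gives about 1 flag in 20 such groups, and 4 were found. That rate does not hold for rows mostly at 0 reads, where a single library with a few reads passes easily. miR-344e-3p, miR-344e-5p and miR-344h-5p each had 0 reads in 3 of the 5 libraries, so nothing is read from the number of flags. miR-344d-3p in library 5 stood at 60.95 CPM, while the other 4 had 25.5 to 31.4 CPM. In library 3 miR-344e-3p stood at 1.77 CPM, miR-344e-5p at 1.27 CPM and miR-344h-5p at 2.03 CPM, from 7, 5 and 8 reads in the library with the fewest reads, and the last 2 rows have the same sequence.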

How the results depend on the processing

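The strain call rests on few libraries. In limma 51 miRNAs passed for strain averaged over injury, and the count was 33 to 71 with single libraries left out, 33 without CAST/Ei injured library 2. It was 97 without C57BL/6 naive libraries 4 and 5, 89 with no filter, 78 with strains weighted by libraries, and 79 in DESeq2 (26 higher and 53 lower, against 23 and 28 in limma). Of the 6 kept miR-344 arms 1 passed, and with single libraries left out 0 to 2 did (0 in limma without C57BL/6 injured library 3 or without library 1 or 3 of the CAST/Ei injured group, where 3 of 6 had an unadjusted p under 0.05 each time, and 2 without C57BL/6 naive library 5). It was 2 without C57BL/6 naive libraries 4 and 5 and 3 with strains weighted by libraries, where miR-344b-3p, miR-344d-3p and miR-344h-3p passed. Chosen after seeing the data, edgeR on recovered reads gave 0 members without C57BL/6 injured library 1 (2 at an unadjusted p under 0.05), and 2 members and 101 miRNAs without C57BL/6 naive libraries 4 and 5. The causes were not tested.

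Replicate numbers were not taken as pairs, since the labels tie them to nothing shared and 10 of 18 same-numbered pairs, not all, had a correlation over 0.1. The own number correlated best in 19 of 36 comparisons, at most a hint from the data that some numbers may go together. Some such matches arise by chance, the 36 comparisons reuse the same 18 pairs, and the hint was not tested. With the replicate block, in which C57BL/6 naive libraries 4 and 5 have no partner, 121 miRNAs and 2 members passed, miR-344b-3p (limma adjusted p = 0.0099) and miR-344d-3p (0.00739).

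Over the 18 single-member changes, 446 of 471 alternatives kept direction and, where tested, side of the threshold or, where not, moved by less than the replicate spread. Part of this count was fixed in advance. In limma, leaving out libraries of 1 strain cannot alter the injury change of the other strain, and a change of filter cannot alter any estimate. Of the rest, 14 untested values moved further with the same sign, 4 lost a call, 6 gained a call and 1 reversed. The sign of each injury change held in all of them, and miR-344e-3p could not be fitted under a filter on a mean of 5 CPM. With a pseudocount of 5 the strain change of miR-344e-3p reversed to -0.053. Its C57BL/6 injury change ran from 1.27 with that pseudocount to 5.01 in edgeR without C57BL/6 injured library 1, since the naive reads are near 0.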
